A study of Mus musculus with 8 samples.

Results

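The genes described here are 10 transcripts that mark fibroblasts: the fibrillar collagen genes Col1a1, Col1a2, Col3a1, Col5a1 and Col5a2, the matrix genes Fn1, Postn, Lum and Dcn, and the surface antigen gene Thy1. They were chosen by name as the rows of the deposited table that carry these symbols, 10 of 34369 distinct symbols, and each was found once. The 8 RNA-seq libraries came from mouse iPS cells (induced pluripotent stem cells), which are made from body cells by reprogramming and resemble embryonic stem cells. Of these, 3 came from wild-type lines of littermate embryos and 5 from lines homozygous for D257A in POLG, called mutator lines here, in which the mitochondrial DNA polymerase lacks proofreading. All lines were cultured in LIF medium on feeder cells whose division had been stopped, and were given 1 passage on gelatin before RNA was taken, a step meant to leave the feeders behind. The labels do not state the kind of feeder cell, the sex of the lines or the ages of the embryos. The 10 genes were compared library by library to see how much fibroblast transcript each library held.

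Fibrillar collagens are triple helices that pack into the banded fibrils of connective tissue. Type I collagen is built from the products of Col1a1 and Col1a2, type III from Col3a1, and type V, from Col5a1 and Col5a2, sits inside type I fibrils and sets how they start and how thick they grow. Fibronectin, periostin, lumican and decorin bind these fibrils or help to organise them. Fibroblasts make all of them in quantity, and embryonic fibroblasts are the common feeder layer of mouse stem cell culture. Thy1 is a surface marker of fibroblasts that is lost early when they are reprogrammed. Fn1 is the least specific of the 10 genes, since stem cells and endoderm also make fibronectin.

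The start regions of Col1a2, Col3a1, Col5a1 and Postn, 4 members that were high in the same libraries, are shown because they are the members found in the RefSeq promoter table used here, which is not complete. Each is the 250 bases before the RefSeq transcription start (GRCm38.p6), read 5′ to 3′, and capitals mark matches on either strand to the letters CCAAT of the CCAAT box, TATAAA of the TATA box or GGGCGG of the GC box.
Col1a2, chr6:4505368-4505617, + strand: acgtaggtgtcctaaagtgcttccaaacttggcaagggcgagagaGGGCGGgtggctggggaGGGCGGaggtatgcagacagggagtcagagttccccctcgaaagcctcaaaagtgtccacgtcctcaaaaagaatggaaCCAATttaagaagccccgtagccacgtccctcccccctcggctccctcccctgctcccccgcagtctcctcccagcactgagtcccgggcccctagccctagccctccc
Col3a1, chr1:45311288-45311537, + strand: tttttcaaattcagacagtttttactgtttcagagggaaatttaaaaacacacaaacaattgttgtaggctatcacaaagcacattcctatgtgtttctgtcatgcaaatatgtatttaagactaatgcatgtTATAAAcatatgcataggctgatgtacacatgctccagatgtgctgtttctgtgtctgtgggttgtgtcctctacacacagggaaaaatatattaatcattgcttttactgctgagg
Col5a1, chr2:27886175-27886424, + strand: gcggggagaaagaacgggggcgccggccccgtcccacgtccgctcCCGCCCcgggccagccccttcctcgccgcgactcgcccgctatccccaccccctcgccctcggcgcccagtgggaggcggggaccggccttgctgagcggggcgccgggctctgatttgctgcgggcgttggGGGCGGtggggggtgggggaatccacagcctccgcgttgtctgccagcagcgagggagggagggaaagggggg
Postn, chr3:54360857-54361106, + strand: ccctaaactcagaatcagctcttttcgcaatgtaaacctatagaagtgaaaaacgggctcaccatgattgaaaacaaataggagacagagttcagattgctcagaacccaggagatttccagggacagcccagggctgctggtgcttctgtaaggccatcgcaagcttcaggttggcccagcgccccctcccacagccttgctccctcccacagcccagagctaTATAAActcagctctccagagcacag
No match was common to all 4 regions, and a further RefSeq start of Postn, whose region held none of the matches, is not shown. CCAAT stood before Col1a2, 109 bases from the start, TATAAA before Postn and Col3a1, 26 and 117 bases from the start, and GGGCGG before Col1a2 and Col5a1. Of 32851 mouse start regions of the same length, 33.8% held CCAAT, 12.4% TATAAA and 32.7% GGGCGG, at any position and on either strand. Holding such a match is therefore not rare. How often a match falls at a given distance from the start was not worked out. The GC content ran from 35.2% before Col3a1 to 76.4% before Col5a1. The Col1a2 region lies inside the gene as placed by the GENCODE M21 annotation used below, which starts it at 4504814. The matches are descriptions of these letters and not of bound factors.

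Values are FPKM as deposited, that is, fragment numbers divided by transcript length and by library size, and levels can therefore be compared between genes. Mutator replicates 1 and 2 were nearly alike. Their squared differences were 1.44 times those of counting alone at the median gene, against 5.82 to 21.12 times for the other pairs within a group. Their column headers share a code, so their mean was taken as 1 sample, leaving 4 mutator against 3 wild-type samples. The 3 wild-type headers share a number, and if that number stands for 1 embryo, the effects of embryo and of genotype cannot be told apart. Between 11198 and 11899 genes a library had at least 1 FPKM, and the spacing of low values implied, very roughly, 28700000 to 68500000 fragments a library, with depth itself not recorded. The cells carried their defining markers: Pou5f1, which encodes the pluripotency factor Oct4, measured 291, 239 and 258 FPKM in wild-type replicates 1 to 3 and 103, 103, 138, 162 and 188 FPKM in mutator replicates 1 to 5. Mutator replicates 1, 2 and 3 stood apart from the other 5 libraries in most of the members, though not in many of the other genes named below. The members' log2 changes are given with and without these libraries. These 3 libraries were picked because the members were high in them, so smaller changes without them follow from that choice and are not a test. The fit without them sets 2 mutator against 3 wild-type samples, and called 16 of all tested genes, against 895 with all samples.

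On the deposited FPKM scale most of the 10 genes were high in mutator replicates 1, 2 and 3 and near wild-type levels in mutator replicates 4 and 5. In the mean of mutator replicates 1 and 2, called the pair, all 10 were above the 3 wild-type samples. The count was 9 in mutator replicate 3, but 4 in mutator replicate 4 and 4 in mutator replicate 5. Among the 11949 genes tested, 33%, 26.8%, 26.1% and 44.2% were above all wild-type samples in, respectively, the pair, mutator replicate 3, mutator replicate 4 and mutator replicate 5. In FPKM the counts in mutator replicates 4 and 5 are therefore near the background. All member counts include Lum, which was too low to be tested. On the TPM scale, which gives every library the same sum, the member counts were 10, 10, 7 and 5 in the same order. The FPKM sums that TPM makes equal ran from 753985 to 1780534. With median-of-ratios size factors the counts were 10, 9, 4 and 2. The count in mutator replicate 4 thus rose under TPM but not with size factors. TPM also moved the median log2 change of all tested genes from -0.03 to 0.37. The shares of all tested genes were not worked out on these 2 scales, so the rescaled counts have no background beside them. At least 2-fold above the wild-type mean were 10 members in the pair, 9 in mutator replicate 3, 0 in mutator replicate 4 and 1, Lum, in mutator replicate 5, where the shares of all tested genes were 13%, 7.57%, 6.06% and 14.2%. The exception in mutator replicate 3 was Col5a2 in both FPKM counts.

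**Figure D1:**
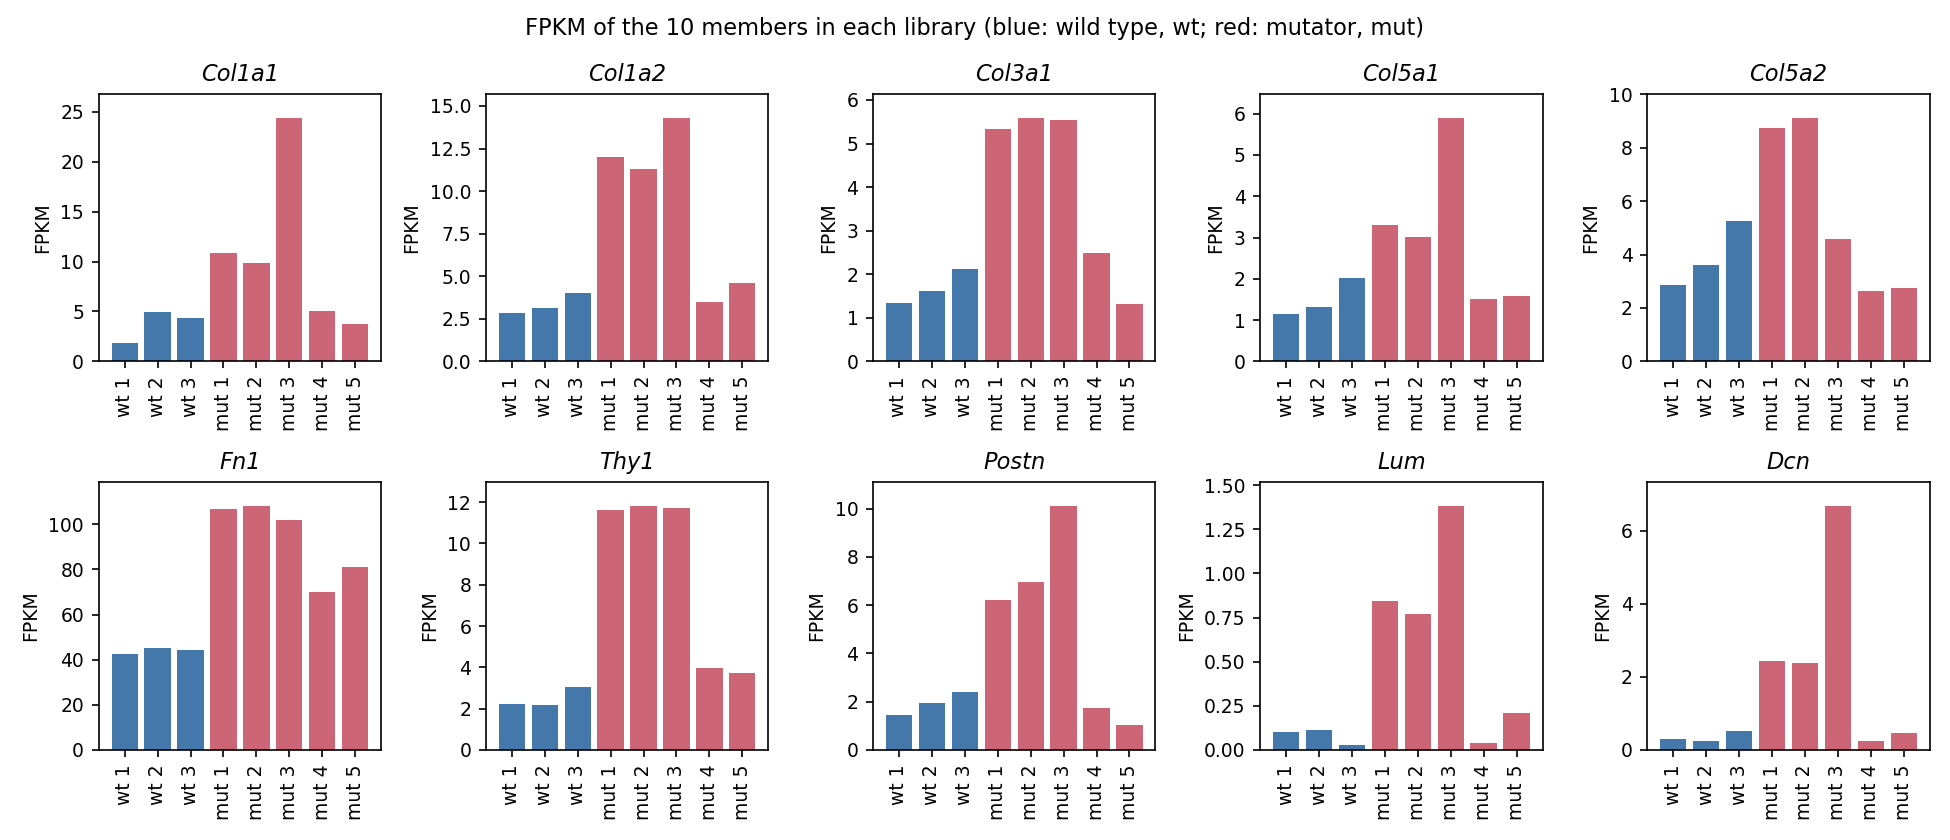
FPKM (vertical axes, from 0) of each of the 10 genes in the 8 libraries, 1 bar a library, with wild-type libraries in blue and mutator libraries in red. Mutator replicates 1 to 3 hold the tallest bars for most genes, while Fn1 and Thy1 are above wild type in all 5 mutator libraries and Col5a2 in mutator replicate 3 is at the wild-type level in FPKM, though above it under TPM.

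Col1a1 and Col1a2, for the 2 chains of type I collagen, were the most abundant collagens of the set in mutator replicate 3. Col1a1 (chromosome 11, 94936224 to 94953042 on the + strand, GENCODE M21, GRCm38) measured 1.83, 4.95 and 4.33 FPKM in wild-type replicates 1 to 3 and 10.9, 9.89, 24.4, 5.04 and 3.75 FPKM in mutator replicates 1 to 5. Col1a2 (chromosome 6, 4504814 to 4541544, + strand) measured 2.85, 3.15 and 4.04 FPKM in wild-type and 12, 11.3, 14.3, 3.51 and 4.59 FPKM in mutator replicates. For both genes the first 3 mutator libraries were above all others, and in FPKM the groups overlapped through mutator replicate 5 for Col1a1 and mutator replicate 4 for Col1a2. The log2 change of FPKM + 1, mutator minus wild type, was 1.09 with a standard error (SE) of 0.55 for Col1a1 and 0.95 with an SE of 0.42 for Col1a2, and neither passed (limma adjusted p = 0.219 and 0.169). Without mutator replicates 1, 2 and 3, an alternative added after the values were seen, these changes were 0.26 and 0.22.

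Col3a1 and Col5a2 are neighbours on chromosome 1, 24.6 kb apart, but they differed in mutator replicate 3. Col3a1 (45311538 to 45349706, + strand), for type III collagen, measured 1.35, 1.62 and 2.11 FPKM in wild-type and 5.34, 5.59, 5.54, 2.48 and 1.31 FPKM in mutator replicates. Col5a2 (45374321 to 45503282, - strand), for the second chain of type V collagen, measured 2.86, 3.62 and 5.26 FPKM in wild-type and 8.73, 9.12, 4.6, 2.65 and 2.73 FPKM in mutator replicates. In FPKM mutator replicate 3 was thus as high as the pair for Col3a1, 3.28-fold above the wild-type mean, and within the wild-type range for Col5a2. Under TPM, Col3a1 was 7.35 in mutator replicate 3, above 4.27 and 4.41 in mutator replicates 1 and 2. On that scale Col5a2 was 6.11 in mutator replicate 3, above the wild-type values of 2.38, 2.03 and 4.41. In mutator replicates 4 and 5 the Col5a2 FPKM were below every wild-type library, but this held for neither under TPM (3.1 and 2.64), and with size factors only for mutator replicate 5. Their log2 changes were 0.68 (SE 0.37) and 0.12 (SE 0.36), with limma adjusted p of 0.24 and 0.839. Without mutator replicates 1, 2 and 3 the Col3a1 change was 0.09 (limma adjusted p = 0.855). The sign of the Col5a2 change turned without wild-type replicate 1, without the pair, and without mutator replicates 1, 2 and 3, at -0.04, -0.18 and -0.38.

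Col5a1, for the first chain of type V collagen (chromosome 2, 27886425 to 28039514, + strand), was high with type I collagen in mutator replicate 3, where its partner Col5a2 was not in FPKM. It measured 1.15, 1.31 and 2.03 FPKM in wild-type and 3.31, 3.01, 5.9, 1.5 and 1.58 FPKM in mutator replicates. Mutator replicates 4 and 5 lay inside the wild-type range, and the change did not pass (log2 change 0.58, SE 0.36, limma adjusted p = 0.3). Without mutator replicates 1, 2 and 3 it was 0.04 (limma adjusted p = 0.92). The level of Col5a2 over that of Col5a1 was 2.48, 2.76 and 2.59 in wild-type replicates, 2.63 and 3.03 in mutator replicates 1 and 2, 0.78 in mutator replicate 3, and 1.77 and 1.73 in mutator replicates 4 and 5. The chain ratio was lowest in mutator replicate 3, and the 3 libraries below all wild-type values were mutator replicates 3 to 5. Col5a1 over Col1a1 also varied, from 0.242 in mutator replicate 3 to 0.63 in wild-type replicate 1.

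Fn1, for fibronectin, which links cells to matrix through integrins, was the 1 member that passed the test. It lies on chromosome 1 (71585520 to 71653200, - strand) and measured 42.5, 45 and 44.5 FPKM in wild-type and 107, 108, 102, 70.1 and 81.3 FPKM in mutator replicates. All 5 mutator libraries were above all 3 wild-type libraries, and the wild-type values differed by at most 1.06-fold in FPKM. The wild-type values were less alike under TPM (35.3, 25.3 and 37.3) and with size factors (36.9, 46.5 and 46.7). On both scales all mutator libraries were above them. The means were 44 ± 1.29 FPKM (SD, n = 3) and 90.2 ± 17.5 FPKM (SD, n = 4), 2.05-fold higher in mutator samples, with a log2 change of 1.0 (SE 0.21, limma adjusted p = 0.0364). The exact permutation test, two-sided, gave p = 0.0571, and 4 against 3 samples allow no smaller value. Of the 9 members tested 1 was called higher and 0 lower, where 2.95% of all tested genes were called higher, 4.54% lower and 7.49% in either direction. Higher calls were 39.4% of all calls, but 98.1% after rescaling each library to the same sum (TPM), with Fn1 called in both. The call was lost without any 1 wild-type replicate (adjusted p = 0.104 to 0.139) and without the pair (0.0709), while the log2 change was 0.91 to 1.11 whichever sample was left out. Without mutator replicates 1, 2 and 3 the change was 0.77 (adjusted p = 0.0904).

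Thy1, for the Thy-1 surface antigen (chromosome 9, 44043384 to 44048579, + strand), had a log2 change of 1.18 with an SE of 0.39 and did not pass (limma adjusted p = 0.0932; p = 0.0571 by exact permutation, two-sided). It measured 2.23, 2.17 and 3.06 FPKM in wild-type and 11.6, 11.8, 11.7, 3.99 and 3.73 FPKM in mutator replicates. In FPKM the first 3 mutator libraries were close, at 4.7-fold above the wild-type mean, and mutator replicates 4 and 5 were also above every wild-type library, at 1.6-fold and 1.5-fold. Under TPM the folds were 4.94 in the pair and 8.25 in mutator replicate 3. In FPKM, Thy1 and Fn1 were the 2 members whose groups did not overlap, which held, with the mutator samples higher, for 12.4% of all tested genes, and in either direction for 28.5%. Under TPM the Col1a2 groups did not overlap either, with mutator samples at 4.11 or more and wild-type samples at 3.39 or less. The share of all tested genes was not worked out under TPM. With median-of-ratios size factors the Thy1 groups overlapped, at 3.17 in mutator replicate 5 and 3.22 in wild-type replicate 3. Thy1 passed with array weights, under TPM and with all 8 libraries counted as samples (adjusted p = 0.0246, 0.0409 and 0.0456). Without mutator replicates 1, 2 and 3 its log2 change was 0.49.

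**Figure D2:**
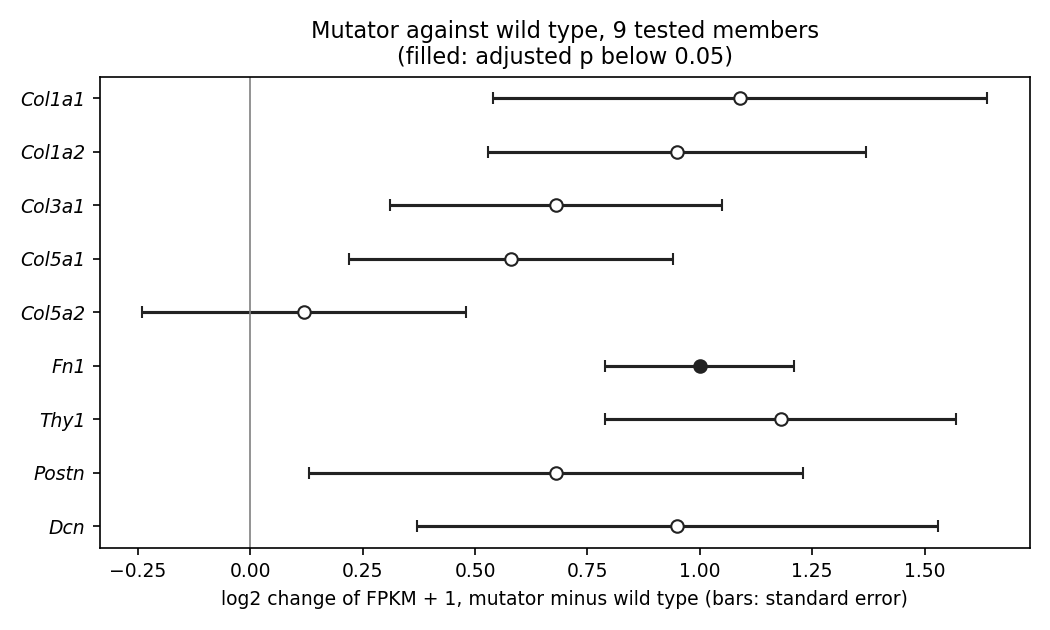
Log2 change of FPKM + 1 (horizontal axis, mutator minus wild type) for the 9 tested members, with standard errors as bars and a filled point where the adjusted p is below 0.05. Fn1 is the filled point at 1.0, and the Col5a2 bar spans 0.

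Postn, for periostin, a matricellular protein that binds collagen, had its lowest and its highest values in mutator libraries. On chromosome 3 (54361109 to 54391037, + strand), it measured 1.45, 1.94 and 2.39 FPKM in wild-type and 6.21, 6.96, 10.1, 1.72 and 1.04 FPKM in mutator replicates. Mutator replicate 5 was below all wild-type libraries and mutator replicates 1 to 3 above them, so that the mutator samples spanned 9.66-fold. The log2 change was 0.68 (SE 0.55, limma adjusted p = 0.429), and -0.30 without mutator replicates 1, 2 and 3.

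Dcn and Lum, for the small leucine-rich proteoglycans decorin and lumican that coat collagen fibrils, were the scarcest members and showed the widest spread. They are neighbours on chromosome 10, Dcn at 97479609 to 97518143 and Lum at 97565128 to 97572703, both on the + strand and 47 kb apart. Dcn measured 0.309, 0.247 and 0.524 FPKM in wild-type and 2.43, 2.38, 6.67, 0.24 and 0.46 FPKM in mutator replicates. Lum measured 0.0992, 0.113 and 0.0303 FPKM in wild-type and 0.841, 0.769, 1.38, 0.0392 and 0.211 FPKM in mutator replicates. In mutator replicate 3 they stood 18.5-fold and 17.1-fold above the wild-type mean, in the pair 6.68-fold and 9.96-fold, and in mutator replicate 4 both were below that mean. Under TPM the folds in mutator replicate 3 were 31.8 for Dcn and 32.2 for Lum. Low values of Lum rest on few fragments, roughly 2 in wild-type replicate 3, 4 in mutator replicate 4 and 232 in mutator replicate 3.

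Dcn did not pass the test, at a log2 change of 0.95 (SE 0.58, limma adjusted p = 0.294), which was -0.01 without mutator replicates 1, 2 and 3. Lum had a mean of 0.436 FPKM over the 8 libraries, below the 1 FPKM needed to enter the fit. Its mean log2 values differed by 0.50 (exact two-sided permutation p = 0.171). The added 1 FPKM compresses such low levels: with 0.1 and 0.01 in its place the difference was 1.47 and 2.03 for Lum, and the change 1.59 and 1.74 for Dcn. Over the 9 tested members the median log2 change was 0.95, beside -0.03 over all tested genes, and it was 0.48 without mutator replicate 3 and 0.09 without mutator replicates 1, 2 and 3. RNA from whole cultures cannot tell more cells of a type from more RNA in each such cell.

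**Figure D3:**
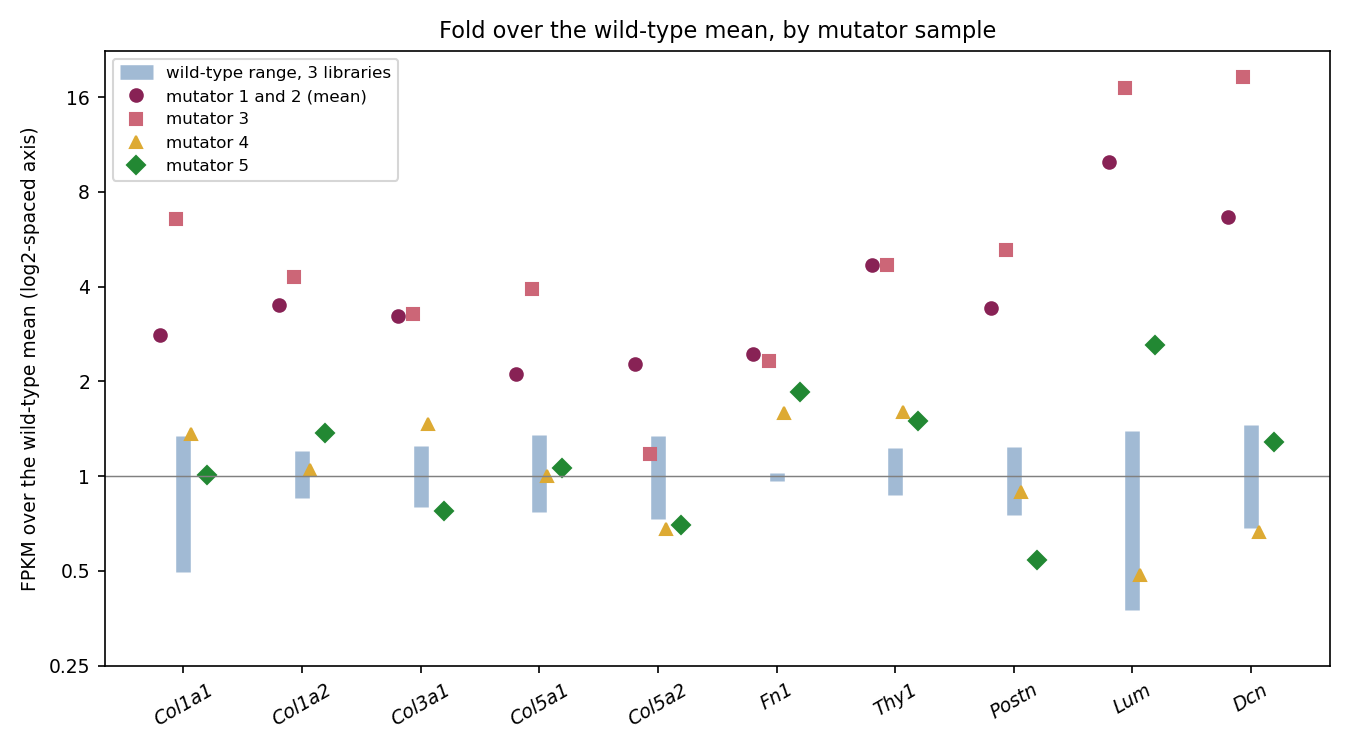
FPKM over the wild-type mean (vertical axis, log2-spaced) for each gene, with the range of the 3 wild-type libraries as a blue bar and 1 symbol a mutator sample, replicates 1 and 2 being averaged. The pair and mutator replicate 3 reach from 1.18-fold for Col5a2 to 18.5-fold for Dcn, and mutator replicates 4 and 5 lie between 0.484-fold and 2.61-fold.

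Mutator replicate 3 was not a scaled copy of the pair. Its level over that of the pair was 2.77 for Dcn, 2.35 for Col1a1, 1.87 for Col5a1, 1.72 for Lum and 1.53 for Postn. It was 1.23 for Col1a2, 1.01 for Col3a1, 0.999 for Thy1, 0.952 for Fn1 and 0.516 for Col5a2. These ratios are of FPKM and depend on the scaling. Under TPM mutator replicate 3 was above mutator replicates 1 and 2 for every member but Col5a2, with Fn1 at 135 against 85.6 and 84.7. The proportions of the 2 type I chains also varied within the wild-type group. Col1a2 over Col1a1 was 1.55, 0.637 and 0.934 in wild-type replicates and 1.11, 1.14, 0.587, 0.696 and 1.22 in mutator replicates. Decorin was high relative to Col1a1 in the libraries with the most fibroblast transcript, at ratios of 0.223, 0.24 and 0.273 in mutator replicates 1 to 3 and of 0.0476 to 0.168 elsewhere. Fn1 made up most of the summed FPKM of the 10 genes in every library, from 54.7% in mutator replicate 3 to 80.7% in mutator replicate 5.

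Without Fn1, the other 9 members summed to 14.1, 19.1 and 23.8 FPKM in wild-type and 61.4, 60.9, 84.5, 21.2 and 19.4 FPKM in mutator replicates. The pair was 3.22-fold and mutator replicate 3 was 4.45-fold above the wild-type mean, and mutator replicates 4 and 5 were within the wild-type range. Under TPM mutator replicate 4, at 24.8, was above the wild-type sums of 11.7, 10.7 and 19.9, and mutator replicate 5, at 18.7, was not. With size factors mutator replicates 4 and 5, at 22.7 and 16.5, were within the wild-type range of 12.3 to 24.9. The wild-type libraries themselves differed, and replicate 1 was the lowest of the 8 in FPKM. Every library held some of these transcripts. Pluripotency markers had a lower FPKM sum than in wild type in all 5 mutator libraries, those with wild-type fibroblast sums included, but on the TPM scale mutator replicates 3 and 4 were at 1.25 and 1.14 times the wild-type mean. The 18 genes of that list summed to 1260.5 to 1560.5 FPKM in wild-type libraries, to 736, 740.2 and 968 FPKM in mutator replicates 1 to 3, and to 1002 and 1029.9 FPKM in mutator replicates 4 and 5. Abundant genes weigh most in this sum, and Tdgf1, Pou5f1 and L1td1 were below every wild-type library in all 5 mutator libraries. The markers did not move together. Of the 18, 7 had a log2 change above 0. Above all wild-type samples were 2 in the pair and 5, 9 and 6 in mutator replicates 3, 4 and 5. Over all tested genes the shares for these samples were 33%, 26.8%, 26.1% and 44.2%. Of the 18, 1 passed, beside 7.49% of all tested genes. It was Tbx3, at 4.06 ± 0.465 FPKM in wild-type and 12.2 ± 5.3 FPKM in mutator samples, and it rose.

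Further fibroblast genes were also highest in mutator replicates 1 to 3 by their sum, with 382, 378 and 349 FPKM against 142 to 255 FPKM in the other libraries. Of 23 other fibroblast markers, 21 were above all wild-type samples in the pair and 19 in mutator replicate 3, against 10 and 12 in mutator replicates 4 and 5. Over all tested genes the shares were 33%, 26.8%, 26.1% and 44.2%, so the count in mutator replicate 5 is near the background. The 23 include genes too low to be tested, so these counts and shares are not like for like. Of the 15 tested 2 rose and 0 fell, beside 2.95% and 4.54% of all tested genes: Ly6a, for the surface antigen Sca-1 that embryonic fibroblasts carry, and Cald1, for the actin-binding protein caldesmon, with log2 changes of 1.93 and 1.18 (limma adjusted p = 0.0353 and 0.0412). Both were also above every wild-type library in mutator replicates 4 and 5. Tcf21, a transcription factor of some fibroblasts, was listed at 0 in 6 of the 8 libraries, so not every listed marker was present. Of 25 other fibroblast matrix genes 18 were tested, 2 rose and 0 fell. These were Fbln1, for fibulin-1, from 1.32 ± 0.518 to 4.54 ± 1.03 FPKM, and Efemp2, for fibulin-4, from 1.56 ± 0.174 to 4.33 ± 1.64 FPKM (limma adjusted p = 0.0291 and 0.0441; SD, n = 3 and 4). The median log2 change was 0.73 for the matrix genes and 0.55 for the markers, and 0.35 and 0.41 without mutator replicates 1, 2 and 3. In that fit, with 2 mutator samples left, 0 genes of any list were called and 16 of all tested genes, so the 0 says little about the lists.

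Type IV collagen departed from the fibrillar members in mutator replicate 5. Of 34 other collagen genes found, 10 were tested and 0 passed. The type IV chain genes Col4a1 and Col4a2, which build basement membrane and not fibrils, summed to 3.01 to 3.74 FPKM in wild-type libraries and to 19.9, 19, 17, 4.74 and 94.7 FPKM in mutator replicates. In mutator replicate 5 this was 27.6-fold above the wild-type mean, while the sum of Col1a1 and Col1a2 was 1.18-fold above it. Col4a2 alone had a log2 change of 2.10 (limma adjusted p = 0.0919). Col18a1, for the chain that also yields endostatin, measured 36.7 ± 3.61 FPKM in wild-type and 68.4 ± 22.1 FPKM in mutator samples (adjusted p = 0.076).

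**Figure D4:**
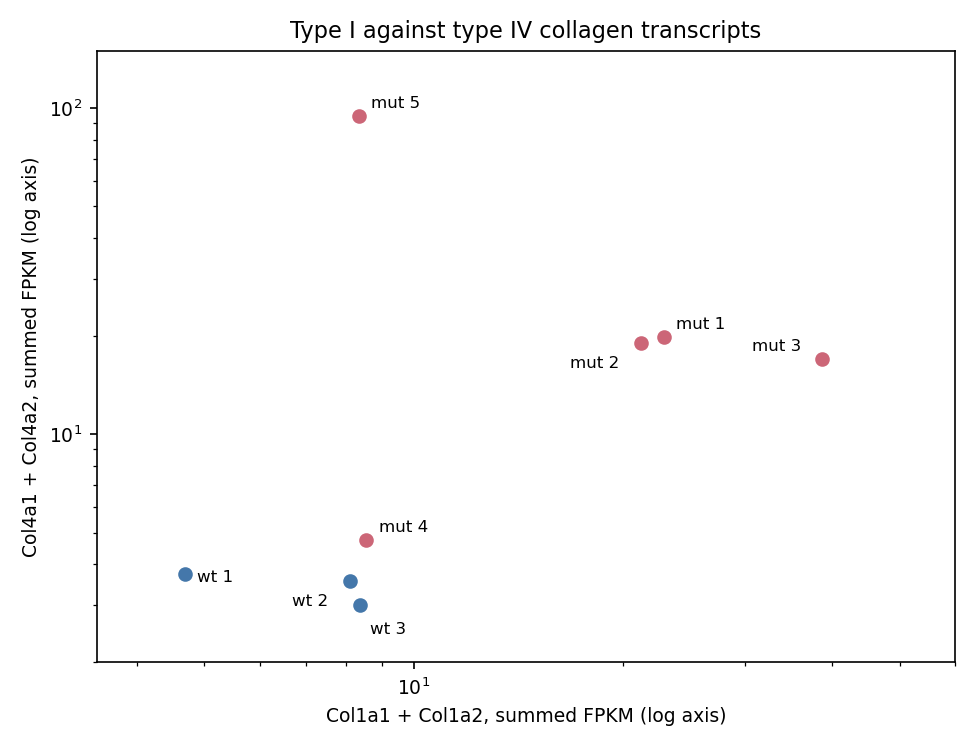
Summed FPKM of Col1a1 and Col1a2 (horizontal, log axis) and of Col4a1 and Col4a2 (vertical, log axis), 1 point a library. Mutator replicates 1 to 3 are high on both, mutator replicate 5 is high for type IV (94.7 FPKM) at a type I sum of 8.34 FPKM, and mutator replicate 4 lies near wild type.

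Collagen processing enzymes and matrix receptors mostly did not pass. Of 24 tested genes for collagen biosynthesis 1 rose, Glt25d1, for a collagen galactosyltransferase, from 6.68 ± 0.453 to 13.9 ± 3.45 FPKM (limma adjusted p = 0.0404), and the other 23 did not pass. Serpinh1, for the collagen chaperone HSP47, and named here after its values were seen, was highest in mutator replicate 5, at 59 FPKM, where the fibrillar collagens were not raised. Of 10 tested receptors for collagen and fibronectin 1 rose, Sdc4, for the heparan sulfate proteoglycan syndecan-4, from 18.8 ± 5.01 to 46.4 ± 16 FPKM (limma adjusted p = 0.0499). Of all tested genes 2.95% were called higher. The median log2 changes of these lists were 0.52 and 0.64.

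Markers of other cell types moved with some of the same libraries. The 18 genes of the primitive and parietal endoderm list summed to 56.9 to 63.9 FPKM in wild-type libraries and to 109, 109, 103, 80.3 and 281 FPKM in mutator replicates. Of the 10 tested 1 rose, beside 2.95% of all tested genes: Nid1, for the basement membrane protein nidogen-1 (limma adjusted p = 0.0361). Gata4, a defining endoderm factor, was 6.51 FPKM in mutator replicate 5 and 0.483 to 1.33 FPKM in the other 7 libraries. The largest parts of the 281 FPKM were the laminin genes Lamc1, Lamb1 and Lama1, at 81.7, 80.8 and 48.6 FPKM. Of the 18 genes, 16 were above all wild-type samples in mutator replicate 5, against 44.2% of all tested genes, and Amn and Afp were not. The 18 include genes too low to be tested, some of them near 0, so this count and share are not like for like. Blood cell markers were by far the highest in the pair. Their 6 genes summed to 3.68 to 5.66 FPKM in wild-type libraries and to 70.5, 70.9, 11.2, 6.68 and 10.6 FPKM in mutator replicates. Lyz2, for the lysozyme of macrophages, measured 57.8 and 58.3 FPKM in the pair and 1.85 to 8.77 FPKM elsewhere, and Emr1, for the macrophage antigen F4/80, 2.34 and 2.27 FPKM against 0.0535 to 0.366 FPKM.

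Cd68, for a macrophage glycoprotein, measured 8.15 and 8.22 FPKM in the pair, 5.92 FPKM in mutator replicate 5 and 1.51 to 2.77 FPKM elsewhere. Lyz2 and Cd68 did not pass (limma adjusted p = 0.154 and 0.399). The defining blood gene Ptprc was at 0.405 and 0.365 FPKM in the pair and at no more than 0.0601 FPKM in the other libraries. Few genes of the endothelial, mesoderm and bone lists were high enough to be tested, 2 of 7, 2 of 11 and 1 of 9, and 0 of these were called. Pecam1 and Tek, for endothelial surface proteins, had log2 changes of -0.10 and -0.28 (0.34 and 0.05 under TPM), the transcription factor genes Meis1 and Foxd3 0.55 and -0.66, and Alpl, for an alkaline phosphatase that stem cells also make, 0.19 (limma adjusted p = 0.246 to 0.852). Runx2, a bone transcription factor gene, was not tested and measured 0.331 to 1.41 FPKM. In the endothelial list 0 of 7 genes were above all wild-type samples in the pair and 0 in mutator replicate 3, and in the bone and cartilage list 5 and 3 of 9 genes were. In the mesoderm and neural crest list 4 and 5 of 11 genes were, and their sum was 1.74-fold above the wild-type mean in mutator replicate 3. Over all tested genes the shares were 33% in the pair and 26.8% in mutator replicate 3. The list counts were not tested against them and are not like for like, since most of the listed genes were too low to be tested. The bone marker Bglap was listed at 0 in all 8 libraries and Ibsp at 0 in 7. What share these other cells have in the levels of the 10 genes was not tested.

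**Figure D5:**
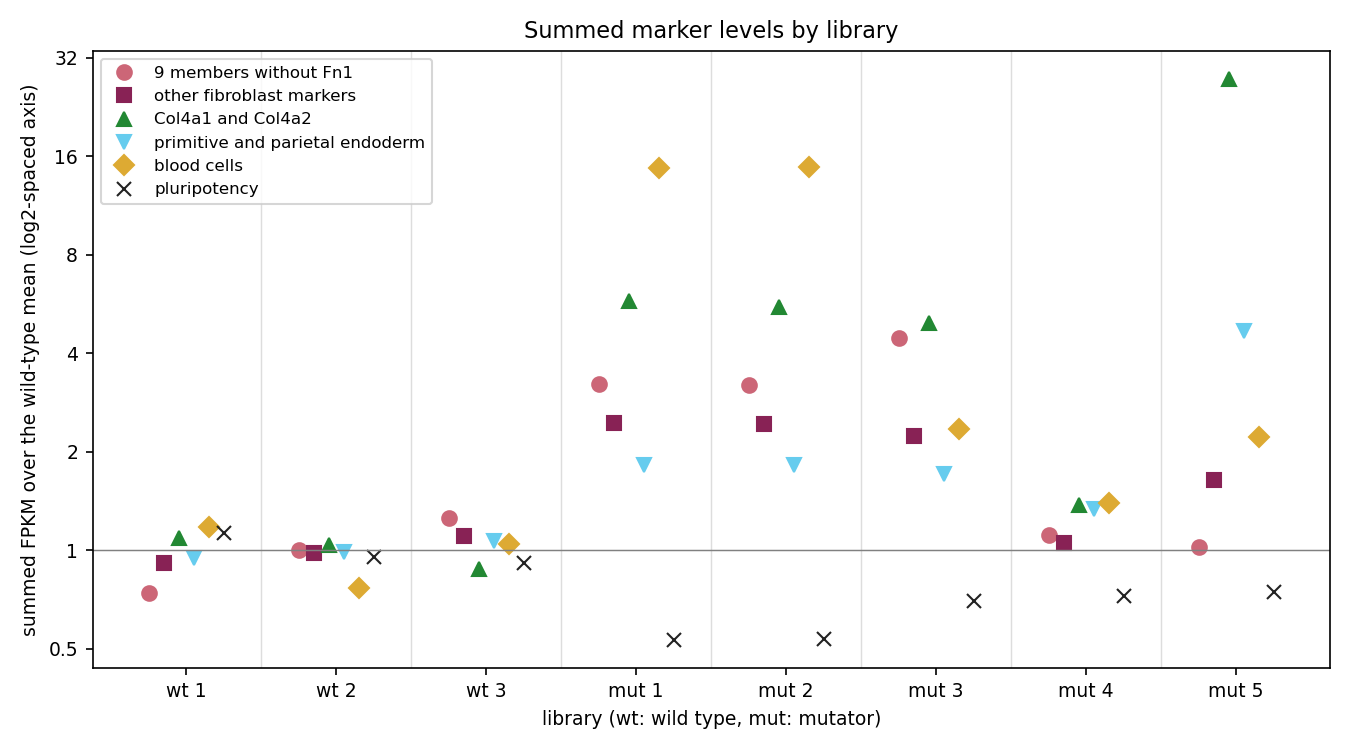
Summed FPKM of marker lists over their wild-type mean (vertical axis, log2-spaced) in each of the 8 libraries, 1 symbol a list. The 9 members without Fn1 are raised in mutator replicates 1 to 3, type IV collagen and endoderm genes most in mutator replicate 5 and blood cell genes most in mutator replicates 1 and 2.

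Transcripts of the Y chromosome differed between the mutator libraries in another order. Eif2s3y, a Y-linked translation factor gene named after its values were seen, measured 94.4, 47.8 and 57.3 FPKM in wild-type and 3.76, 4.14, 65.3, 0.957 and 52.4 FPKM in mutator replicates. Ddx3y was low in the same 3 libraries, mutator replicates 1, 2 and 4. Xist, which coats the inactive X chromosome, measured 2.02 to 3.56 FPKM in wild-type and 2.66 to 5.3 FPKM in mutator libraries. The libraries with high fibroblast transcript thus included low and high Y-linked levels, so that the 2 patterns do not coincide.

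Among 4911 other genes with a range of at least 1 on the log2 scale, those most like the mean log2 level of the 5 fibrillar collagens over 7 samples included several matrix genes. The closest was Col6a1, for type VI collagen (Pearson r = 0.995), followed by Pcdh7, Col6a2, Angptl2, Gpr176, Fbn1 for fibrillin-1, Slc41a2, Tnc for tenascin-C, Mcpt8 and Il1rl1, the last at r = 0.980. Col6a1 measured 0.896, 1.18 and 1.67 FPKM in wild-type and 4.33, 4.22, 4.66, 1.49 and 1.17 FPKM in mutator replicates. Il1rl1, for the interleukin-33 receptor, measured 1.32, 2.09 and 3.4 FPKM in wild-type and 6.8, 6.57, 14.3, 2.23 and 2.06 FPKM in mutator replicates. Within the 10 members, r with the mean of the fibrillar collagens other than the gene itself ran from 0.646 for Col5a2 and 0.775 for Fn1 to 0.974 for Postn. These correlations rest on the same 7 samples, in which the pair and mutator replicate 3 carry most of the range.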

How the data were processed

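The authors deposited 1 table of FPKM with a column for each library, made with STAR and Cufflinks, per the submitters' processing notes. Their versions, build, annotation and strandedness are not given in the sources used here. There were 37305 gene rows and 34369 symbols. Rows of 265 repeated symbols were summed, and 31 NA cells were kept as missing. Positions are from GENCODE M21 (GRCm38) by gene ID. Genes whose mean over 8 libraries reached 1 FPKM were tested on log2(FPKM + 1), a scale that understates changes of low genes, with limma 3.58.1 (R 4.3.3; lmFit, eBayes with trend), Benjamini-Hochberg adjusted over 11949 genes, at a threshold of 0.05. Calls of changed genes are from this fit. No count test was run, since the values are not counts. The fit was checked on simulated data. Single values were compared by exact permutation. Alternatives covered the pseudocount, filter, scaling, weights, the replicate block and left-out samples. The labels do not say that replicates are separate cultures beyond naming independent lines, so p-values measure the spread between these samples. Genes were named by a rule: all members, up to 4 called genes of each list by p or else 2 by level, the 10 genes most like the fibrillar collagens, Xist and Ddx3y. Emr1, Ptprc, Gata4, Lamc1, Lamb1, Lama1, Amn, Afp, Bglap, Ibsp, Tcf21, Pou5f1, Tdgf1, L1td1, Serpinh1, Col4a1 and Eif2s3y are outside it and were chosen after their values were seen. The members and lists were chosen with earlier results of these data known. Tables and exact tests used SciPy 1.17.1, numpy 2.4.6 and pandas 2.3.3 (Python 3.11.15), and plots matplotlib 3.10.9.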

Additional observations from a re-analysis of the deposited data

How the results depend on the processing

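The count of members called higher was 1, Fn1. It was 0 with no filter and without mutator replicates 1, 2 and 3, 2 under TPM, with array weights and with all 8 libraries, and 0 to 1 when 1 sample was left out. The count of all called genes, 895, was 4 with no filter, 2150 with median-of-ratios size factors, 2203 with all 8 libraries, 3618 with array weights, 16 without mutator replicates 1, 2 and 3, and 2 to 1096 when 1 sample was left out. With the replicate block over libraries 1 to 3 of each group, 1 gene and 0 members were called; the numbers did not pair the samples, since same-numbered libraries correlated at 0.013, -0.012 and 0.051 in their deviations. No member was called lower in any alternative (0). Reversed signs were -0.04, -0.18 and -0.38 for Col5a2 (-0.18 to 0.31 when 1 sample was left out), -0.30 for Postn and -0.01 for Dcn, in the fits named with those genes. Under TPM the median log2 change was 0.37 over all genes (-0.03 as reported) and 1.08 over the members (0.95), and 7 members, not 4, were above all wild-type samples in mutator replicate 4. Size factors moved those in mutator replicate 5 from 4 to 2. The called list genes named in the text were called under both scalings, and Col4a2 and Col18a1 were also called under TPM (adjusted p = 0.033 and 0.0362). Only 5, 2 and 2 of all genes were called without wild-type replicates 1, 2 and 3, and 5 without the pair. In those fits and with no filter, several of the called list genes therefore lost their call. The causes were not tested.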

Other observations

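The genes named here were chosen after their values were seen. Col9a1, for a collagen of cartilage, measured 2.77 FPKM in wild-type replicate 3 and at most 0.0738 FPKM in the other 7 libraries. Col6a3, for the third chain of type VI collagen, measured 8.34 FPKM in mutator replicate 3 and 0.587 to 2 FPKM elsewhere, so it departed from Col6a1, which was as high in mutator replicates 1 and 2. Dpt, for dermatopontin, a fibroblast matrix protein, measured 0.494, 0.377 and 1.03 FPKM in mutator replicates 1 to 3 and at most 0.0352 FPKM in the other libraries. Srgn, for the proteoglycan serglycin of parietal endoderm and blood cells, measured 16.9 FPKM in mutator replicate 5 and at most 2.08 FPKM elsewhere.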
